A study of Mus musculus with 11 samples.

Results

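The genes described here are 9 genes of bone-forming cells: Sost, Dmp1, Mepe, Phex, Fam20c, Ibsp, Bglap, Bglap2 and Sp7. They were taken by name from a list and are 9 of the 55421 genes counted in 11 libraries of poly(A) RNA from mouse knee cartilage. All mice were C57BL/6, 14 weeks old and killed 4 weeks after DMM (destabilization of the medial meniscus by cutting its ligament), which is used to bring on osteoarthritis in the knee. The groups were 4 libraries of DMM knees of mice labelled c-FosDCh, 3 of DMM knees of c-FosWT mice and 4 of contralateral knees of c-FosWT mice. The label c-FosDCh is taken to mean that chondrocytes lack Fos; the Cre driver is not given, and contralateral knees of these mice were not analysed here. The libraries came from 8 mice: each of the 3 c-FosWT DMM knees has the contralateral knee of its own animal among the 4.

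Osteoblasts lay down the collagen and proteins of bone and mineralize them. Some become enclosed in the bone as osteocytes, which secrete signals that set how much bone is made and how much phosphate the kidney keeps. Articular cartilage itself holds chondrocytes and lies on calcified cartilage and subchondral bone, so tissue cut from a joint surface with a scalpel can hold RNA of all of these. Transcripts of Ibsp and Sp7 are also known from hypertrophic chondrocytes, the enlarged cells of calcifying cartilage, while sclerostin, the product of Sost, is best known as an osteocyte protein.

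Over the 11 libraries Ibsp and Mepe are the members whose levels parted most, which rests on replicate 4 of the libraries labelled c-FosDCh (values with and without it are given with the ratios), and Bglap and Bglap2 are near copies, so the starts of Bglap, Ibsp, Mepe and Dmp1 are shown. Dmp1 (chr5:104202613-104214102), Ibsp (chr5:104299171-104311469) and Mepe (chr5:104325329-104338611) lie close together on the plus strand in GRCm38, and Bglap2 (chr3:88377736-88378699) lies beside Bglap (chr3:88383501-88384464) on the minus strand. The sequences are the 180 bases before a RefSeq transcript start (GRCm38.p6), written 5′ to 3′ on the strand of the gene. Capitals mark ACCACA, the core letters bound by Runx factors, and TATAAA, the TATA box, on either strand; no match of one overlaps a match of the other.
Bglap, chr3:88384467-88384646, minus strand: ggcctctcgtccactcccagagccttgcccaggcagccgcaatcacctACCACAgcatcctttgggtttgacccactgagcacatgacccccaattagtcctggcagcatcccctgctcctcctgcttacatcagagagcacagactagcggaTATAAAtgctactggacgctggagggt
Ibsp, chr5:104299107-104299286, plus strand: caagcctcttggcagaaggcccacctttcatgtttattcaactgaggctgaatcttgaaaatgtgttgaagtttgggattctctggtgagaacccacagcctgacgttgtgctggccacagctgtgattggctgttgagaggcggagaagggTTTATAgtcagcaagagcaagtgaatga
Mepe, chr5:104325149-104325328, plus strand: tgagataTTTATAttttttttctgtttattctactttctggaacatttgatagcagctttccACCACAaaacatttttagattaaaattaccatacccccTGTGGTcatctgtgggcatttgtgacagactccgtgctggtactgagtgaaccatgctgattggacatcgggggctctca
Dmp1, chr5:104202437-104202616, plus strand: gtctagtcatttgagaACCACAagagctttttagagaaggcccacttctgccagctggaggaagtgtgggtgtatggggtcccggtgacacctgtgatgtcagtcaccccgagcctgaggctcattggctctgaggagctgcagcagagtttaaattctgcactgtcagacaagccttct

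RefSeq windows were matched for 7 of the 9 genes and searched over 250 bases before the start. ACCACA was found in 3 of the 7 (Dmp1, Mepe and Bglap), against 14.0% of 32817 windows of all genes. TATAAA was found in 3 of the 7 (Mepe, Bglap and Ibsp), against 12.4% of windows. In Bglap it lay 22 to 27 bases before the start, and in Ibsp, on the other strand, 23 to 28 bases before it. The RefSeq start used for Ibsp lies 116 bases inside the gene span given above. Dmp1 has another RefSeq start, 5038 bases before its gene span, whose window held no match of these letters. TGANTCA, the letters bound by AP-1, the dimers that contain Fos, was found in 0 of the 7, against 6.75% of windows. These are matches of letters only.

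Each of the 9 genes was counted in every library, with a lowest count of 66 (Mepe) and a highest of 62392 (Ibsp). Gene counts per library ranged from 13593454 to 18280558. Levels are CPM, a gene's count relative to the TMM-scaled library total, so they compare libraries; levels of different genes are compared only per length. Fos, the targeted gene, had 19.4, 10.9, 29.5 and 33.0 CPM under the label c-FosDCh, 12.1, 14.1 and 9.01 CPM in operated c-FosWT knees and 17.1, 24.8, 22.0 and 15.7 CPM in contralateral knees. It was thus not lower under the label c-FosDCh than in operated wild-type knees (log2 fold change 0.98 ± 0.35 (SE), edgeR adjusted p = 0.0736), and every direction given for c-FosDCh is one of libraries labelled so. All 15 chondrocyte markers, among them Col2a1, the main cartilage collagen gene, had counts in every library.

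A pair of libraries stood apart in these genes. Replicate 4 of the libraries labelled c-FosDCh had the lowest level of all 11 libraries for 7 of the 9 genes, the exceptions being Ibsp and Fam20c; 28.6% of the 18125 genes tested had their lowest level in that library. Contralateral replicate 3 had the highest level for 8 of the 9 genes, the exception being Ibsp, against 5.79% of all tested genes. Values without these libraries are given beside the results that they move most.

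Sost encodes sclerostin, which osteocytes secrete and which blocks Wnt signalling at the receptors Lrp5 and Lrp6. Sost had 176, 97.0, 111 and 9.37 CPM in replicates 1 to 4 labelled c-FosDCh DMM, 38.4, 58.1 and 71.8 CPM in DMM knees of c-FosWT mice and 127, 162, 303 and 66.4 CPM in contralateral knees. The groups overlapped throughout: 3 of the 4 c-FosDCh libraries lay above every c-FosWT DMM library and the fourth lay below all others. The means were 98.3 ± 68.5 CPM (SD, n = 4) for c-FosDCh DMM, 56.1 ± 16.8 CPM (n = 3) for c-FosWT DMM and 165 ± 100 CPM (n = 4) for contralateral knees. Without replicate 4 the c-FosDCh mean was 128 ± 42.1 CPM (n = 3), and without replicate 3 the contralateral mean was 119 ± 48.6 CPM (n = 3).

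Mepe encodes a matrix phosphoglycoprotein whose acidic peptide inhibits mineralization. It had 148, 136, 110 and 5.24 CPM in libraries labelled c-FosDCh DMM, 62.3, 59.4 and 61.8 CPM in DMM knees of c-FosWT mice and 159, 110, 245 and 78.9 CPM in contralateral knees. Every c-FosWT DMM library lay below every contralateral library, while the c-FosDCh libraries spanned both groups. The means were 99.6 ± 64.9 CPM (SD, n = 4), or 131 ± 19.6 CPM (n = 3) without replicate 4, for c-FosDCh DMM, 61.2 ± 1.53 CPM (n = 3) for c-FosWT DMM and 148 ± 72.4 CPM (n = 4) for contralateral knees. Without replicate 3 the contralateral mean was 116 ± 40.4 CPM (n = 3). Across the 11 libraries Mepe ranged 46.7-fold and Sost 32.4-fold, the widest ranges of the 9 genes. Both rested on c-FosDCh replicate 4: without it Mepe ranged 4.12-fold, less than Sost (7.90-fold), Ibsp (7.15-fold), Bglap2 (4.64-fold) and Bglap (4.25-fold).

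Dmp1 encodes an acidic matrix phosphoprotein of osteocytes, and Phex a membrane endopeptidase that cleaves acidic peptides of such proteins; loss of either raises Fgf23 and lowers blood phosphate. Dmp1 had 187, 246, 140 and 23.0 CPM in c-FosDCh DMM libraries, 168, 196 and 151 CPM in DMM knees of c-FosWT mice and 146, 164, 282 and 131 CPM in contralateral knees. Phex had 106, 151, 80.3 and 16.8 CPM in c-FosDCh DMM libraries, 156, 162 and 91.7 CPM in DMM knees of c-FosWT mice and 132, 163, 236 and 121 CPM in contralateral knees. Apart from c-FosDCh replicate 4, all Dmp1 levels lay within about the same range in the 3 groups, and Phex levels overlapped. Fam20c encodes the Golgi kinase that phosphorylates secreted proteins, Dmp1, Mepe and Ibsp products among them. It had 95.1, 87.5, 77.2 and 61.0 CPM in c-FosDCh DMM libraries, 70.7, 60.3 and 74.8 CPM in DMM knees of c-FosWT mice and 98.1, 84.4, 142 and 70.3 CPM in contralateral knees. Fam20c ranged 2.35-fold with or without c-FosDCh replicate 4, the narrowest range of the 9 over all libraries; without that replicate Sp7 (1.81-fold) and Dmp1 (2.16-fold) ranged less. Its groups overlapped, with means of 80.2 ± 14.8 CPM (SD, n = 4) for c-FosDCh DMM, 68.6 ± 7.46 CPM (n = 3) for c-FosWT DMM and 98.7 ± 31.0 CPM (n = 4) for contralateral knees.

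Ibsp encodes bone sialoprotein, an integrin-binding matrix protein that can seed mineral crystals. It had 1655, 1671, 3903 and 1694 CPM in libraries labelled c-FosDCh DMM, 1207, 546 and 655 CPM in DMM knees of c-FosWT mice and 2159, 1399, 1939 and 847 CPM in contralateral knees. Every c-FosDCh library lay above every c-FosWT DMM library, with replicate 3 far above the rest, and the contralateral libraries overlapped both groups. The means were 2231 ± 1115 CPM (SD, n = 4) for c-FosDCh DMM, 802 ± 354 CPM (n = 3) for c-FosWT DMM and 1586 ± 587 CPM (n = 4) for contralateral knees. Replicate 4 labelled c-FosDCh, lowest in Sost, Mepe, Dmp1 and Phex, ranked 8 from the lowest of 11 in Ibsp.

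Bglap and Bglap2 encode osteocalcin, a small protein that binds mineral after its glutamates are carboxylated. Bglap had 56.2, 63.9, 41.7 and 15.2 CPM in c-FosDCh DMM libraries, 104, 87.2 and 58.8 CPM in DMM knees of c-FosWT mice and 84.6, 90.2, 177 and 60.8 CPM in contralateral knees. Bglap2 had 34.7, 32.8, 18.5 and 8.10 CPM in c-FosDCh DMM libraries, 49.7, 42.0 and 28.6 CPM in DMM knees of c-FosWT mice and 44.6, 37.8, 85.8 and 29.6 CPM in contralateral knees. Both genes had their lowest group mean in the c-FosDCh libraries, of which 3 of 4 lay below all c-FosWT DMM libraries for Bglap and 2 of 4 for Bglap2. Of the stretches of their exons as long as a read (75 bases), 272 of 544 in Bglap and 291 of 397 in Bglap2 also occur in another gene, mainly each other, so reads from one copy may be uncounted or placed in the other. Bglap3, the next copy, had at most 10 counts in any library and was too low to test.

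Sp7 encodes osterix, a transcription factor without which no osteoblasts form. It had 115, 119, 113 and 61.8 CPM in c-FosDCh DMM libraries, 110, 91.0 and 90.9 CPM in DMM knees of c-FosWT mice and 129, 124, 164 and 99.9 CPM in contralateral knees. Outside c-FosDCh replicate 4 and contralateral replicate 3 its levels lay close together. The c-FosDCh mean was 102 ± 27.1 CPM (SD, n = 4), or 116 ± 3.06 CPM (n = 3) without replicate 4, against 97.2 ± 10.8 CPM (n = 3) in c-FosWT DMM knees and 129 ± 26.6 CPM (n = 4) in contralateral knees. Without replicate 3 the contralateral mean was 118 ± 15.6 CPM (n = 3).

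**Figure D1:**
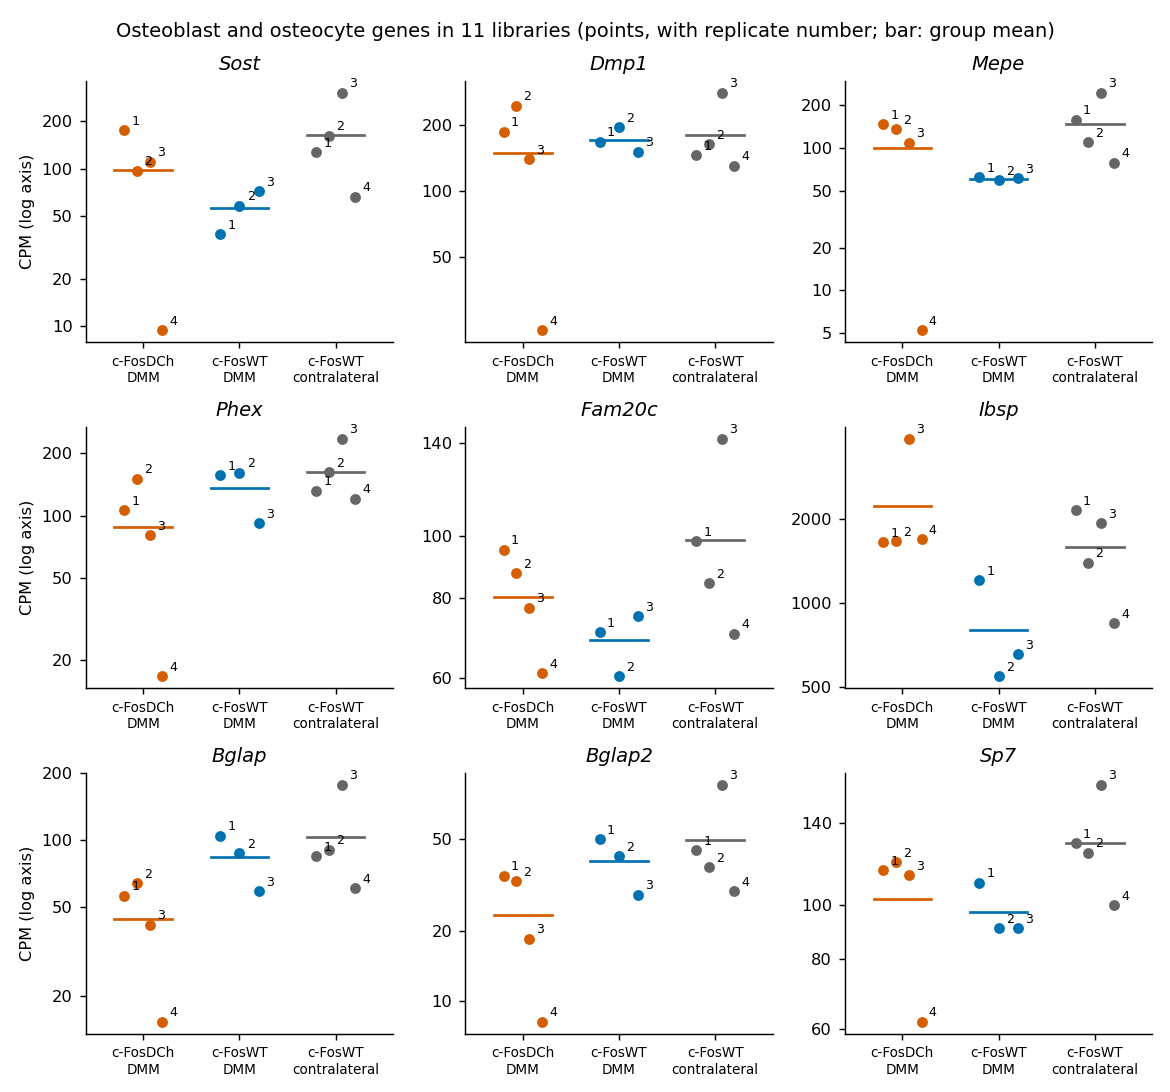
Level of each of the 9 genes in every library (CPM, log axis); points are libraries with their replicate number and bars are group means. Replicate 4 labelled c-FosDCh lies far below the others in Sost, Dmp1, Mepe and Phex (5.24 CPM in Mepe), while Ibsp there is 1694 CPM.

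Compared per length, as CPM per kb of exon, Ibsp stood highest in each group, at 1079 in c-FosDCh DMM, 388 in c-FosWT DMM and 767 in contralateral knees. Bglap followed, at 71.6 CPM per kb in c-FosDCh DMM, 135 in c-FosWT DMM and 167 in contralateral knees, though in c-FosDCh DMM it did not stand above Mepe (59.2) beyond their spread. Reads that occur in both Bglap and Bglap2 may be uncounted, so their levels per length may be too low beside those of the other genes. Fam20c came last, at 12.2 CPM per kb in c-FosDCh DMM, 10.4 in c-FosWT DMM and 15.0 in contralateral knees. Between them, the order of Mepe, Dmp1, Bglap2 and Sost differed between groups. In c-FosDCh DMM and in contralateral knees these neighbours lay within their spread over libraries. In contralateral knees, for example, Mepe had 88.1 ± 43.0 and Sost 79.8 ± 48.6 CPM per kb (SD, n = 4). In c-FosWT DMM, Dmp1 (62.1 ± 8.11 CPM per kb, n = 3) lay above Mepe (36.4 ± 0.912) in every library. Sp7 (28.6 ± 3.19) and Sost (27.1 ± 8.13) followed there and overlapped.

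The genes fell into sets by how far replicate 4 labelled c-FosDCh lay below the mean of the other 3 libraries of its label. Of the 9, Mepe at 4.00%, Sost at 7.33%, Dmp1 at 12.1% and Phex at 14.9% of that mean were lowest there. Bglap and Bglap2 stood at 28.3% and 28.2%, Sp7 at 53.3%, Ibsp at 70.3% and Fam20c at 70.4%. Other osteocyte genes did not all follow: of 10 tested, 8 lay below that mean, with a median of 59.9%. Dkk1, a secreted Wnt inhibitor, was lowest at 11%, Ackr3, a scavenging chemokine receptor, was highest at 176%, and Gja1, the connexin 43 gene, stood at 102%. Col1a1, the main collagen gene of bone and fibrous tissue, stood at 57.1%, while Col2a1 stood at 159%. In the same library the marrow score (28 red cell and granulocyte genes, averaged as log2 CPM) was 3.96, against 6.16 to 7.54 in the other c-FosDCh libraries, 8.08 to 8.87 in c-FosWT DMM and 6.53 to 8.18 in contralateral libraries. The osteoclast score, over 10 genes, was 4.22 there, against 4.68 to 5.52 in the other c-FosDCh libraries, 5.65 to 5.99 in c-FosWT DMM and 5.31 to 6.01 in contralateral libraries. The part of these cell types in the levels was not tested, and in bulk tissue fewer bone cells and less RNA of these genes per cell cannot be told apart.

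**Figure D2:**
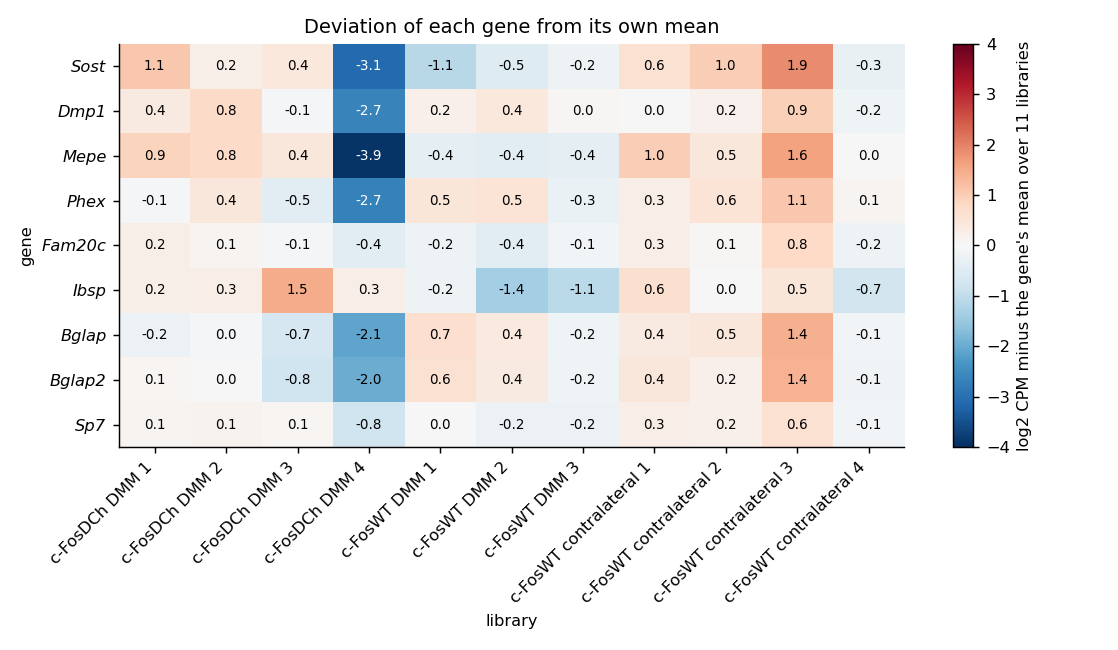
Log2 CPM of each gene (down the page) in each library (across) minus the gene's own mean over 11 libraries; red is above and blue below that mean. Replicate 4 labelled c-FosDCh is far below the mean for Sost, Dmp1, Mepe and Phex and near it for Ibsp, and contralateral replicate 3 is above the mean for all 9 genes.

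How alike pairs of genes varied was measured as the SD over the 11 libraries of the log2 ratio of their levels, where 0 means a constant ratio; the libraries share depth and tissue make-up, and no test was made. Bglap and Bglap2 kept the steadiest ratio (0.15), followed by Sp7 and Fam20c (0.19); without c-FosDCh replicate 4 both pairs stood at 0.15. Phex varied like Bglap and like Dmp1 (0.31 each), and Sost like Mepe (0.45). Ibsp kept no such ratio to Mepe, its neighbour on chromosome 5 (1.51). Without c-FosDCh replicate 4 that value was 0.62, and Ibsp then parted more from Bglap (1.09), Bglap2 (1.08) and Phex (1.02). Its ratio to Alpl, the phosphatase gene of osteoblasts and hypertrophic chondrocytes, was steady (0.20).

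Log2 Ibsp minus log2 Mepe was 3.48, 3.62, 5.15 and 8.30 in replicates 1 to 4 labelled c-FosDCh DMM, 4.27, 3.20 and 3.40 in c-FosWT DMM and 3.76, 3.66, 2.98 and 3.42 in contralateral libraries. Replicates 3 and 4 labelled c-FosDCh thus had the most Ibsp relative to Mepe of all libraries. They also had Col2a1 at 10735 and 11705 CPM, against 6082 and 5294 CPM in replicates 1 and 2 of that label. Over all libraries the 2 did not run together. Contralateral replicate 1, at 3.76, had the most Col2a1 (12288 CPM), and c-FosWT DMM replicate 1, at 4.27, had 6277 CPM. The ratio of Ibsp to Col2a1 had an SD of 0.59 with or without c-FosDCh replicate 4, and that of Mepe to Col2a1 an SD of 1.70 with it and 0.69 without it.

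**Figure D3:**
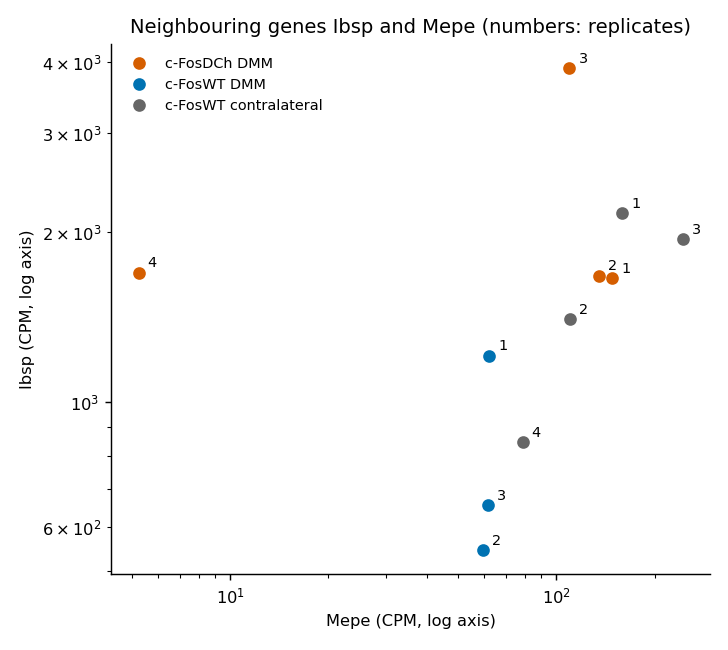
Level of Ibsp against level of Mepe in each library (CPM, log axes), numbered by replicate. Replicate 4 labelled c-FosDCh stands alone at 5.24 CPM of Mepe and 1694 CPM of Ibsp, and replicate 3 has the most Ibsp, 3903 CPM.

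Set against the mean log2 CPM of all 9 genes, Dmp1 (0.38), Bglap2 (0.39), Sp7 (0.41), Bglap (0.42) and Phex (0.43) followed it most closely, and Ibsp least (1.00). The median over all tested genes was 0.84. Each of the 9 is itself part of that mean, which draws its value down, so the 9 cannot be compared evenly with that median. Col1a1 stood at 0.79, near that median, and Col2a1 at 1.12. Without c-FosDCh replicate 4 the order changed: Fam20c (0.15) and Sp7 (0.18) followed the mean most closely. Ibsp then stood at 0.72 and Sost at 0.58, and the median over all tested genes was 0.51. Col1a1 (0.70) and Col2a1 (0.67) then both stood above that median. The 10 other genes most like the mean were Magi1 (0.22), Rnf150, Pcdh7, Ccdc162, Sema5a, Egr3, Tmem220, Prr15, Ccdc194 and Cacna2d3 (0.30). None of these 10 stood in the marker lists used here.

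The comparison of operated with contralateral c-FosWT knees asks what DMM did to these genes. All 9 had a log2 fold change below 0 in c-FosWT DMM knees, with a median of -0.41, against a median of -0.0097 and 50.9% below 0 over all 18125 genes tested. None passed: 0 of 9 had an edgeR adjusted p under 0.05, as had 0.0% of all genes. At an unadjusted p under 0.05 there were 2 of the 9 (Fam20c and Ibsp) and 3605 of all genes (19.9%), and DESeq2 called 0 of the 9 and 902 of all genes. The 3 comparisons share their groups, so they are not independent.

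For Sost the log2 fold change was -1.56 ± 0.78 (SE; edgeR adjusted p = 0.288), or -1.08 without contralateral replicate 3. For Mepe it was -1.28 ± 0.79 (edgeR adjusted p = 0.374), or -0.92 without that library, with the groups apart as described; 13.1% of all tested genes were lower in c-FosWT DMM with no overlap. For Ibsp it was -0.98 ± 0.44 (edgeR adjusted p = 0.251) and for Fam20c -0.52 ± 0.23 (edgeR adjusted p = 0.243). The values of Sp7 (-0.41), Bglap (-0.31), Bglap2 (-0.30), Phex (-0.25) and Dmp1 (-0.072) lay nearer to 0. Without contralateral replicate 3, Dmp1, Bglap and Bglap2 stood at 0.23, 0.086 and 0.10. Marrow RNA moved with the groups: summed erythroid genes, none of 14 at 0, ranged from 8349 to 13809 CPM in c-FosWT DMM and from 2416 to 7220 CPM in contralateral knees. Chondrocyte markers moved too: 13 of 15 had a value below 0, with a median of -0.75, and their sum, none at 0, ranged from 6687 to 17942 CPM in c-FosWT DMM and from 21327 to 38734 CPM in contralateral knees. With the marrow score as a covariate the values were -2.65 for Sost (edgeR adjusted p = 0.398), -2.52 for Mepe (0.391) and -0.74 for Ibsp (0.567). That fit spans all 11 libraries, and c-FosDCh replicate 4 had the lowest marrow score (3.96) together with the lowest Sost and Mepe. Contralateral replicates 1 to 4 had marrow scores of 7.21, 6.56, 6.53 and 8.18, with Sost at 127, 162, 303 and 66.4 CPM. How far the covariate values rest on c-FosDCh replicate 4 was not tested. With the cartilage score, the mean log2 CPM of the chondrocyte markers, they were -2.05 for Sost (edgeR adjusted p = 0.642), -1.56 for Mepe (0.708) and -0.53 for Ibsp (0.780).

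Within the 3 mice that gave both knees, DMM minus contralateral log2 CPM was -1.35, -0.89 and -0.35 for Mepe and -0.84, -1.36 and -0.37 for Ibsp, and also below 0 in all 3 for Sp7. For Sost it was -1.73, -1.48 and 0.11, so the third animal did not share the difference. Dmp1 was 0.21, 0.26 and 0.21, slightly higher in the DMM knee of each mouse. Phex was 0.24, -0.0077 and -0.40, so its knees were higher, level and lower. These 4 genes thus did not move alike within animals: Mepe was lower in 3 of 3 DMM knees, Sost in 2 of 3 and Dmp1 in 0 of 3.

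**Figure D4:**
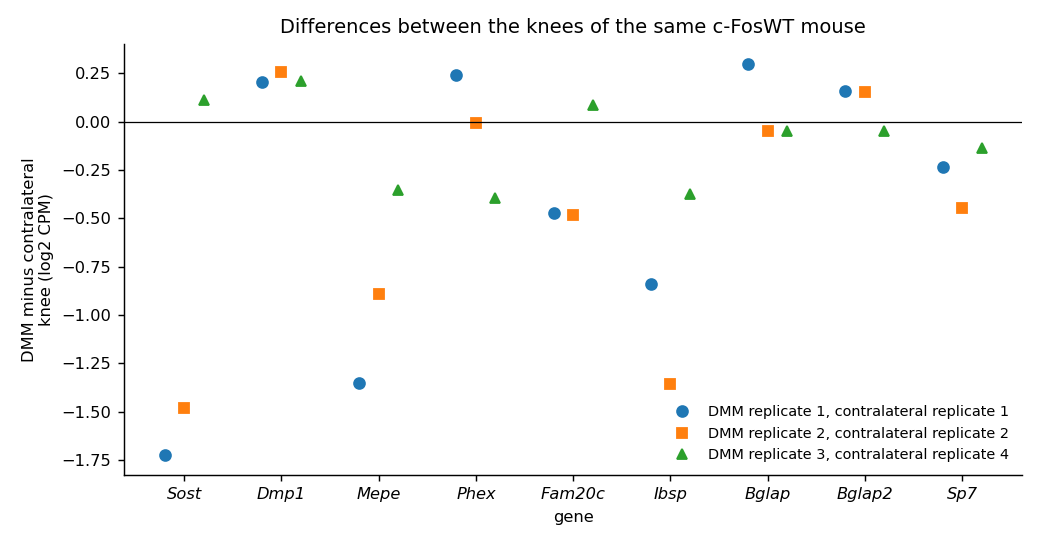
Log2 CPM in the DMM knee minus that in the contralateral knee of the same c-FosWT mouse, for each gene; each symbol is 1 of 3 mice and the line marks no difference. Mepe, Ibsp and Sp7 are below the line in all 3 mice, and Dmp1 is above it in all 3.

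The comparison of the DMM groups asks how operated knees labelled c-FosDCh differed from operated c-FosWT knees. Of the 9 genes 5 had a log2 fold change above 0 and 4 below, with a median of 0.075 against -0.0089 over all genes. None passed at an edgeR adjusted p under 0.05, against 14.4% of all genes; 1 of 9, Ibsp, had an unadjusted p under 0.05, against 7074 of all genes (39.0%), and DESeq2 called 1 of 9, Ibsp, and 5358 of all genes. The count behind that 14.4%, 2616 genes, depended on single libraries. It was 0 without c-FosDCh replicate 3 or 4, c-FosWT DMM replicate 2 or 3 or contralateral replicate 1, and 1 without contralateral replicate 2. It was 1355 without contralateral replicate 3, 4449 without c-FosDCh replicate 1 and 4626 without c-FosDCh replicate 2.

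Ibsp had a log2 fold change of 1.48 ± 0.45 (SE; edgeR adjusted p = 0.0521), higher in 4 of 4 libraries labelled c-FosDCh than in any c-FosWT DMM library; 17.2% of all tested genes were higher with no overlap. It passed without c-FosDCh replicate 1 (edgeR adjusted p = 0.0436), c-FosDCh replicate 2 (0.0399), c-FosWT DMM replicate 1 (0.0460) or contralateral replicate 4 (0.0444). It missed without any other single library, with values from 1.06 (without c-FosDCh replicate 3) to 1.59 (without c-FosDCh replicate 4). With DESeq2 it was 1.46 (adjusted p = 0.00651). The chondrocyte list moved with it in sum. Its 15 genes, none at 0, summed to 22094 to 78741 CPM in c-FosDCh DMM and 6687 to 17942 CPM in c-FosWT DMM. In contralateral knees the sum was 21327 to 38734 CPM. Of the 15, 12 had a log2 fold change above 0 between the DMM groups and 3 below: Matn3 (-5.04), Col9a1 (-1.37) and Cnmd (-0.50). With the cartilage score as a covariate, the Ibsp value was 1.00 (edgeR adjusted p = 0.223), and with the marrow score 1.12 (edgeR adjusted p = 0.522).

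Bglap (-0.91 ± 0.47 (SE), edgeR adjusted p = 0.167) and Bglap2 (-0.77 ± 0.48, edgeR adjusted p = 0.245) had values below 0 beside the positive one of Ibsp. With Bglap, Bglap2 and Bglap3 summed the value was -0.87 (edgeR adjusted p = 0.188). Sost (0.81 ± 0.76), Mepe (0.70 ± 0.77), Phex (-0.62 ± 0.55), Fam20c (0.22 ± 0.23), Dmp1 (-0.20 ± 0.58) and Sp7 (0.075 ± 0.23) had edgeR adjusted p from 0.399 to 0.819. Without c-FosDCh replicate 4 Sost stood at 1.18 (edgeR adjusted p = 0.130), Mepe at 1.09 (0.0779) and Dmp1 at 0.14 (0.755).

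Set against contralateral c-FosWT knees, the DMM libraries labelled c-FosDCh differ in both surgery and genotype, which cannot be told apart. Ibsp had a positive log2 fold change (0.49 ± 0.40 (SE), edgeR adjusted p = 0.667), and the other 8 had values below 0, with a median over the 9 of -0.57 against -0.0024 over all genes. However, c-FosDCh replicate 4 was lowest for 7 of the 9 and contralateral replicate 3 highest for 8. Without both, the c-FosDCh and contralateral means were 128 and 119 CPM for Sost, 191 and 147 for Dmp1 and 131 and 116 for Mepe. They were 86.6 and 84.3 CPM for Fam20c, 116 and 118 for Sp7 and 2410 and 1468 for Ibsp. The c-FosDCh mean stayed lower for Phex (113 and 139 CPM), Bglap (53.9 and 78.6 CPM) and Bglap2 (28.7 and 37.3 CPM). None of the 9 passed, as 0.0% of all genes; at an unadjusted p under 0.05 there were 2 of the 9 (Bglap and Bglap2) and 1512 of all genes (8.34%), and DESeq2 called 0 of the 9 and 41 of all genes. The values were -1.22 ± 0.44 for Bglap and -1.07 ± 0.46 for Bglap2 (edgeR adjusted p = 0.584 each). Without c-FosDCh replicate 4 they were -0.91 and -0.76.

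**Figure D5:**
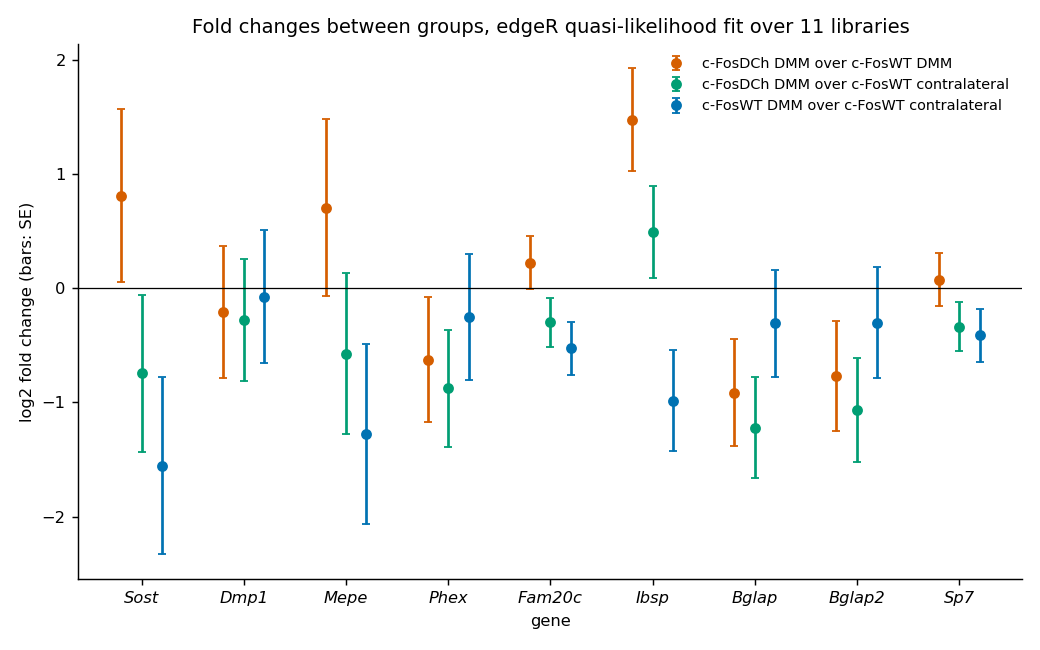
Log2 fold change of each gene in the 3 comparisons, from 1 edgeR fit over 11 libraries; bars are standard errors and the line marks no change. Ibsp is highest between the DMM groups, at 1.48 ± 0.45, and Sost and Mepe are lowest between c-FosWT DMM and contralateral knees, at -1.56 ± 0.78 and -1.28 ± 0.79.

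Other genes of the same cells were followed in lists. Of 24 tested other osteoblast genes, 1 rose in DMM libraries labelled c-FosDCh against c-FosWT DMM, and 0 fell, with a median log2 fold change of -0.081; over all tested genes 10.6% rose and 3.79% fell. This gene was Alpl, with 869 ± 326 CPM (SD, n = 4) in c-FosDCh and 367 ± 113 CPM (n = 3) in c-FosWT DMM (log2 fold change 1.24 ± 0.36 (SE), edgeR adjusted p = 0.0471). Col1a1, of the same list, had 25862 ± 18709 CPM in c-FosDCh DMM and 32727 ± 1400 CPM in c-FosWT DMM knees (log2 fold change -0.34 ± 0.48, edgeR adjusted p = 0.602). Of 10 tested other osteocyte genes 1 rose, Ackr3 (1.33 ± 0.35, edgeR adjusted p = 0.0394). Fgf23, the phosphate hormone of osteocytes, was at 0 in replicate 4 labelled c-FosDCh and too low to test.

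A list of 10 further genes held those of receptors for the members' proteins, of osteocalcin carboxylation, of the Fam20 family and of Mgp. Of these, 5 rose in DMM libraries labelled c-FosDCh against c-FosWT DMM and 0 fell, against 10.6% and 3.79% of all tested genes. Their median log2 fold change was 0.72, with 8 above 0 and 2 below, lowest for the integrin gene Itgb3 (-1.43). Ggcx, the carboxylase of osteocalcin, had 119 ± 37.6 CPM (SD, n = 4) in c-FosDCh DMM and 52.3 ± 9.31 CPM (n = 3) in c-FosWT DMM knees (1.18 ± 0.23 (SE), edgeR adjusted p = 0.0332). Vkorc1, which recycles the vitamin K that Ggcx uses, had 6.75 ± 2.38 CPM in c-FosDCh DMM and 3.13 ± 0.904 CPM in c-FosWT DMM knees (1.11 ± 0.32, edgeR adjusted p = 0.0454). Mgp, a carboxylated inhibitor of calcification that chondrocytes make, had 567 ± 321 CPM in c-FosDCh DMM and 169 ± 67.0 CPM in c-FosWT DMM knees (1.75 ± 0.43, edgeR adjusted p = 0.0360). Lrp6, a receptor that sclerostin blocks, had 250 ± 45.9 CPM in c-FosDCh DMM and 156 ± 15.9 CPM in c-FosWT DMM knees (0.68 ± 0.15, edgeR adjusted p = 0.0332). The fifth was Fam20b, which codes for a xylose kinase of proteoglycan assembly (0.77 ± 0.23, edgeR adjusted p = 0.0475). Osteocalcin's own genes had lower mean levels in the same libraries, as given above. All 7 of these calls are lost without those single libraries that left no gene called.

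In c-FosWT DMM against contralateral knees 0 genes of the 3 lists passed, with medians of -0.28, -0.37 and -0.38 for other osteoblast, other osteocyte and the 10 further genes; 7 of 24, 1 of 10 and 4 of 10 had an unadjusted p under 0.05, against 19.9% of all genes. The lowest p-values were those of Dlx5 (-1.03 ± 0.30 (SE)) and Smpd3 (-0.73 ± 0.27), Ackr3 (-1.19 ± 0.35) and Capg (-0.27 ± 0.13), and Ggcx (-0.76 ± 0.23) and Lrp6 (-0.41 ± 0.15), with edgeR adjusted p from 0.182 to 0.258. In c-FosDCh DMM against contralateral knees 0 passed either, with medians of -0.32, -0.30 and 0.25, and 4, 0 and 0 had an unadjusted p under 0.05, against 8.34% of all genes. The lowest p-values there were those of Dlx3 (-0.94 ± 0.28) and Ifitm5 (-0.90 ± 0.29), Ptprz1 (-0.42 ± 0.20) and Cd44 (-0.45 ± 0.26), and Mgp (0.81 ± 0.38) and Lrp6 (0.27 ± 0.13), with edgeR adjusted p from 0.584 to 0.607.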

How the data were processed

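Per the labels' protocols, articular cartilage was dissected under a binocular, and its poly(A) RNA was made into directional libraries read as single 75-base reads. The tools named, per the submitters' processing notes, are STAR 2.6.1a, RSEM, DESeq2 1.22.2 and bcl2fastq 2.19.1.403, with the build GRCm38; annotation release and strand setting are not given in the sources. The authors deposited raw counts per gene for each library. Read classes that name no gene stayed out: 7.33 to 26.3% of reads were unmapped, 6.79 to 10.2% multimapping, 33.2 to 42.0% without a feature and 0.625 to 0.941% ambiguous, and 33.1 to 43.2% were gene counts. Reads that map to several places, as those shared by gene copies can, fall in the multimapping class, which was left out. Symbols came from GENCODE M21 (GRCm38), which matched 55240 of 55421 identifiers without their version. No exon of the 9 genes overlaps an exon of another gene.

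Counts of all genes were fitted in R 4.3.3 with edgeR 4.0.16 (filterByExpr with a minimum count of 10, 18125 genes kept; TMM; glmQLFit with robust estimation, glmQLFTest) over all 11 libraries with group as the only term. The threshold was an adjusted p (Benjamini-Hochberg, over all genes tested, two-sided) of 0.05. A standard error is the size of the log2 fold change over the root of its F value. Log2 CPM used a prior count of 2. Alternatives used limma 3.58.1 and DESeq2 1.42.0, and pandas 2.3.3 and matplotlib 3.10.9 in Python 3.11.15 made tables and figures. The fit was tested on simulated data. The c-FosDCh replicates were numbered by accession order. Knees of the same mouse are pairs by the animal named in the labels; their deviations from the group means correlated at -0.20, -0.21 and 0.34 in the 3 mice. The genes, lists and tests were chosen with earlier results of these data known. Other genes were named by rule: of each of 3 lists, up to 4 called genes with the smallest p, or else the 2 with the smallest p, and the 10 genes most like the mean of the 9; Fam20b, Fos, Fgf23, Dkk1, Gja1 and the genes of other lists in the closing section were named outside it, with their values known.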

Additional observations from a re-analysis of the deposited data

Results flagged for a closer look

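Among libraries labelled c-FosDCh DMM, single libraries lay far from the other 3 of the group, the gap to the nearest one taking over 0.829 of the group's whole range. Mepe in replicate 4 was 2.42 log2 CPM, with the nearest at 6.78. Sp7 in replicate 4 was 61.8 CPM (5.95 log2 CPM), with the nearest at 113 CPM (6.82 log2 CPM). Ibsp in replicate 3 was 3903 CPM (11.93 log2 CPM), with the nearest at 1694 CPM (10.73 log2 CPM). Chance gives about 1 such case in 20 groups, and 36 were examined (9 genes, the 2 groups of 4, CPM and log2 CPM). The 36 are not independent: the 2 scales hold the same values, and the 9 genes come from the same libraries. The number of cases therefore cannot be set against that rate.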

How the results depend on the processing

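Depth was ample for the 9 genes; the spread between 3 or 4 libraries a group limits the tests. Of 672 log2 fold changes under other settings, 642 kept their direction and side of the threshold, 22 turned direction and 8, all of Ibsp between the DMM groups, passed it. The causes were not tested. The ranges and ratios without c-FosDCh replicate 4 were added after seeing the data.

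Genes called between c-FosDCh and c-FosWT DMM numbered 1443 with no filter on low counts and 5358 with DESeq2. They numbered 0 with only the 2 groups compared, without c-FosDCh replicates 3 and 4 together, without both muscle-rich libraries (c-FosWT DMM 1 and contralateral 2) or with the marrow, cartilage or muscle score as a covariate; leaving out 1 library gave 0 to 4626. DESeq2 called 902 between c-FosWT DMM and contralateral knees and 41 between c-FosDCh DMM and contralateral knees, where leaving out 1 library gave 0 to 1. Of the 9 genes, 1 (Ibsp) passed between the DMM groups with upper quartile scaling (edgeR adjusted p = 0.0475), a floor of 5 CPM in 3 libraries (0.0487), DESeq2 (0.00651) and limma-voom (adjusted p = 0.0427), and 0 to 1 when 1 library was left out. Over all settings its log2 fold change was 1.00 to 1.86 and its adjusted p 0.00651 to 0.522. The c-FosWT DMM level of Mepe was 64.1 CPM on library totals alone.

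With the animal as replicate block, over the 3 pairs, 0 genes and 0 of the 9 passed. The main fit of c-FosWT DMM against contralateral knees also called 0, so these counts cannot show whether the pairing matters. With the block, Dmp1, Bglap and Bglap2 turned to 0.24, 0.080 and 0.10. In the same 6 libraries with no block, a fit added after seeing the data, they turned to 0.24, 0.098 and 0.12. Between c-FosWT DMM and contralateral knees, leaving out 1 library gave -0.18 to 0.23 for Dmp1, -0.48 to 0.086 for Bglap and -0.47 to 0.10 for Bglap2, highest without contralateral replicate 3; Dmp1 was 0.020 without c-FosWT DMM replicate 3. Between the DMM groups Sp7 turned to -0.078 on library totals alone and ranged from -0.013 to 0.25 with 1 library left out, below 0 without c-FosDCh replicate 1 or 2, and Mepe turned to -0.046 with limma-voom. Dmp1 ranged from -0.56 to 0.14, highest without c-FosDCh replicate 4, and turned to 0.32 without replicates 3 and 4, 0.73 with the marrow score and 0.10 with the cartilage score, and Phex to 0.17 with the marrow score. Between c-FosDCh DMM and contralateral knees Dmp1 ranged from -0.63 to 0.11, above 0 without c-FosDCh replicate 4 or contralateral replicate 3, and turned to 0.28 without c-FosDCh replicates 3 and 4. Library totals alone moved the median of all genes by -0.17 and -0.16 in the 2 comparisons with c-FosDCh.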

Other observations

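Cells that resorb bone and cells of calcifying cartilage were followed beside the bone-forming genes. Of 10 osteoclast genes, 4 fell in DMM libraries labelled c-FosDCh against c-FosWT DMM and 1 rose, with a median log2 fold change of -1.08; of all tested genes 3.79% fell and 10.6% rose. Blood and vessel genes were lower beside them: 6 of 14 erythroid genes fell (median -2.17, 14 of 14 below 0), and of 6 endothelial genes 0 passed (median -1.20, 6 of 6 below 0). Their part in the osteoclast values was not tested. Acp5, the tartrate-resistant phosphatase, had 323 ± 130 CPM (SD, n = 4) in c-FosDCh DMM and 709 ± 120 CPM (n = 3) in c-FosWT DMM knees (log2 fold change -1.13 ± 0.32 (SE), edgeR adjusted p = 0.0429). The fusion genes Ocstamp and Dcstamp and the receptor gene Oscar also fell, by 1.33, 1.05 and 1.11 on the log2 scale (edgeR adjusted p from 0.0369 to 0.0445). Nfatc1, the transcription factor of osteoclast formation that other cells use too, rose by 0.42 (edgeR adjusted p = 0.0470). Of 15 chondrocyte genes 5 rose (median 0.76, 12 above 0 and 3 below), against 10.6% of all genes. Of 5 hypertrophic chondrocyte genes beside them, Col10a1 and Alpl rose and 0 fell, with 4 above 0 and 1 below. The others were Ihh (1.02, edgeR adjusted p = 0.222), Mef2c (0.10, 0.804) and Mmp13 (-0.58, 0.324), so the 5 hypertrophic chondrocyte genes did not all go 1 way. Col10a1, the collagen gene that defines hypertrophic chondrocytes, had 4514 ± 2458 CPM (n = 4) in c-FosDCh DMM and 711 ± 494 CPM (n = 3) in c-FosWT DMM knees (2.67 ± 0.65, edgeR adjusted p = 0.0349). All these calls are among the 2616 that fall to 0 when c-FosDCh replicate 3 or 4 is left out.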
